A study of Gallus gallus with 12 samples.

Results

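SPP1 encodes osteopontin, a secreted, acidic and heavily phosphorylated glycoprotein that binds cells through integrins and CD44. It was followed here along the early chick neural tube, from the midbrain (m) through rhombomeres r1 to r5, which are hindbrain segments. The members are all probe sets whose gene symbol in the probe annotation is SPP1 and the rule found 1 of them, so that SPP1 is 1 of 13009 genes with a single symbol and 1 of the 10001 that passed the filter on low signals. The gene was chosen on its measured signal in r5, so its levels over the regions are given as a description, with no test.

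The samples were 12 Affymetrix Chicken GeneChips, 2 for each of the 6 regions. Each array carried amplified cDNA from a pool of neural tube tissue, and the pools of a region, collected on different occasions, are called set 1 and set 2. The labels give the stage as HH10, and the growth notes run to HH11, the stage that the paper's methods give. Dispase, an enzyme that loosens the adhering ectoderm and mesoderm, was used at 1 mg/ml, for 15 min by the labels and less by the paper. Segments were then cut by hand, so each array measures all cell types of a segment together. In such bulk tissue, fewer cells of a type and less RNA per cell cannot be told apart. Signals are MAS5 intensities divided by the median of their array and brought to a common median of 5.90, so a scaled signal of 5.90 is that of the middle probe set of every array. With 2 arrays a region, precision is limited by their number.

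Osteopontin belongs to a family of small matrix glycoproteins, with IBSP, DMP1, MEPE and DSPP, whose genes lie together in the genome and which are best known from mineralising bone and teeth. Outside the skeleton it is made by macrophages and many epithelia, where an RGD motif engages integrins that contain the αv or β1 subunit and its effects on cell adhesion and migration depend on phosphorylation and on cleavage by proteases. Rhombomere 5 is the segment next to the otic vesicle. It expresses Hox genes of the third paralogous group, which are absent or low further anterior, and its neurons contribute to the abducens and facial nuclei.

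SPP1 signal was high in r5 and low everywhere else. In r5 the scaled signal of SPP1 was 412 in set 1 and 459 in set 2, a mean of 436 ± 33.3 (SD, n = 2). In r4, the segment directly anterior to it, the arrays gave 12.6 and 24.5, a mean of 18.6 ± 8.44 (SD, n = 2). The r5 arrays thus stand far above both r4 arrays, and the r4 arrays differ from each other more than those of any other region outside r5 do. In r1 the signals of SPP1 were 18.4 and 16.4, a mean of 17.4 ± 1.38 (SD, n = 2). In r2 they were 13.6 and 17.2, a mean of 15.4 ± 2.56 (SD, n = 2). In m they were 12.1 and 11.3, a mean of 11.7 ± 0.553 (SD, n = 2). These 3 regions and r4 lie close together, above the array median of 5.90 on every array. In r3 the signals were 7.59 and 4.21, a mean of 5.90 ± 2.39 (SD, n = 2), so that 1 of the r3 arrays is above the array median and the other below it.

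**Figure D1:**
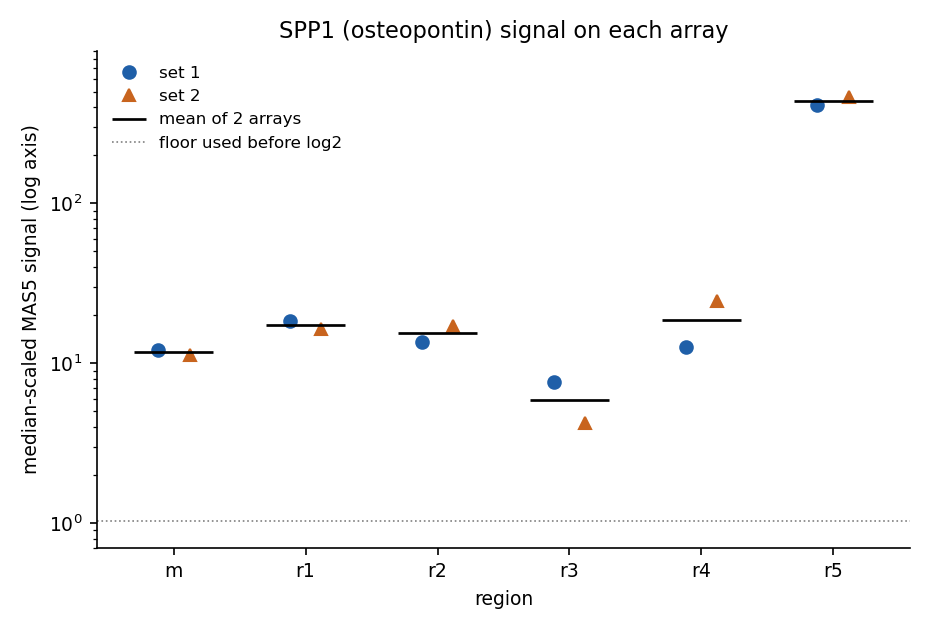
Median-scaled MAS5 signal of SPP1 (log axis) in each region, with a circle for set 1, a triangle for set 2, a bar for the mean of the 2 arrays and a dotted line at the floor of 1.03 used before taking log2. The r5 arrays, at 412 and 459, sit above the 10 other arrays, which run from 4.21 to 24.5.

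Ordered by mean signal, the regions ran r5, r4, r1, r2, m and r3. The arrays of r4 and r1 overlapped, as did those of r1 and r2, so these neighbours in the order do not differ beyond their spread. The arrays of r5 and r4, of r2 and m, and of m and r3 did not overlap. As a share of the r5 mean, the SPP1 signal was 4.26% in r4, 3.99% in r1, 3.53% in r2, 2.68% in m and 1.35% in r3. The deposited signals before scaling had the same shape, at 293 and 380 in r5 against 2.92 to 30.1 on the other arrays, although without scaling r2 and r1 came before r4 in the order.

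The difference between r5 and r4 was 4.63 ± 0.69 on the log2 scale (error from the SDs of both regions, n = 2 each), a 24.8-fold difference, with single arrays between 16.8-fold and 36.5-fold apart. Among the 21731 probe sets that passed the filter this was rank 3. The difference between r5 and r3 was 6.27 ± 0.61 on the log2 scale (error from both SDs, n = 2 each), or 76.9-fold, which was rank 4. Against the mean of m and r1 to r4 it was 5.12 ± 0.22 on the log2 scale (error from the SDs), or 34.7-fold and rank 5. The r5 signal was 37.2-fold that of m (rank 15), 25.1-fold that of r1 (rank 17) and 28.5-fold that of r2 (rank 8). Ahead of SPP1 in the comparison of r5 with the other 5 regions stood HOXA3 at 6.66, ASL1 at 5.83, FAH at 5.44 and APOH at 5.33 on the log2 scale, and behind it came VSIG1 at 5.09 and HOXB3 at 4.76. HOXA3 and HOXB3 are the Hox genes of this axial level, and ASL1 encodes a delta crystallin, a protein of the argininosuccinate lyase family. FAH is the last enzyme of tyrosine breakdown and APOH is a plasma glycoprotein.

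A stricter reading sets the lower r5 array against the highest of the 10 other arrays. For SPP1 this ratio was 16.8, from 412 in set 1 of r5 over 24.5 in set 2 of r4, and it was the highest of all 21731 probe sets. Both r5 arrays lay above all others for 708 probe sets, or 3.26%, so the absence of overlap is shared by many probe sets and the width of the gap is what ranks SPP1 first. These ranks describe the value that chose the gene.

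Several measures bear on how the r3 and r4 values are read. The r3 arrays stand apart from the rest in their control transcripts. For GAPDH, a glycolytic enzyme, the signal at the 3′ end over that at the 5′ end was 41.7 and 42.9 in r3, 7.49 and 4.03 in r4, 3.84 and 0.941 in r5. In the 3 anterior regions it was 0.957 to 1.48. For beta-actin, of the cytoskeleton, this ratio was 181 and 70.0 in r3, 35.4 and 44.7 in r4, and 33.5 and 22.0 in r5, against 7.15 to 13.3 in the anterior regions. For the elongation factor EF1a it was 360 and 113 in r3, 17.2 and 9.13 in r4, and 8.33 and 3.67 in r5, against 1.98 to 3.80. By beta-actin both r5 arrays thus also stood above the anterior regions. Over all probe sets the median log2 difference of r5 minus r3 was 0.57, against −0.01 for r5 minus r4 and 0.06 for r5 minus the mean of the other regions, and the SPP1 difference of 6.27 is to be set against that 0.57. The part of these values in the low SPP1 signal of r3 was not tested. The difference of SPP1 between r5 and the mean of m, r1, r2 and r4, with both r3 arrays left out, was 4.83 on the log2 scale.

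The r4 and r5 arrays were checked against the Hox genes of these segments. HOXA3 had scaled signals of 512 and 503 in r5 and 22.0 and 56.1 in r4, and it was higher in r5 (log2 difference 3.85, adjusted p = 0.0286 by limma). HOXB3 was at 60.1 and 44.5 in r5 and at 7.74 and 10.0 in r4, a log2 difference of 2.55 that was not called (adjusted p = 0.186, limma). HOXB1, the Hox gene of r4, was at 225 and 367 in r4 and at 57.6 and 101 in r5, a log2 difference of −1.91 that was not called either (adjusted p = 0.407, limma). On the arrays of m to r3 its highest signal was 15.1, so HOXB1 also read above those regions in r5. The variance behind the p-values of these Hox genes was fitted over all regions, so it also carries the spread of arrays outside r4 and r5. The r4 signal as a share of the r5 mean was 2.89% in set 1 and 5.63% in set 2 for SPP1. For HOXA3 these shares were 4.34% and 11.1%, so set 2 of r4 was the higher array for both genes. It was also the higher one for HOXB3, with shares of 14.8% and 19.2%, and for HOXB1, the gene of r4 itself, at 225 and 367. Whether r5 cells in the r4 pools had a part in this was not tested.

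Other tissues that make osteopontin were looked for through their markers. Of the 12 macrophage markers, all measured, 1 was above the array median on both r5 arrays, and their summed signal was 210 to 250 in r5, 152 to 247 in r3 and 123 to 177 in m, r1, r2 and r4. That 1 gene was CD74, the invariant chain of MHC class II, at 220 and 178 in r5 against 93.1 to 190 on the other arrays. The other 11 macrophage markers summed to 29.6 and 32.4 in r5 and 28.3 to 56.3 elsewhere. Of these 11 only CSF1R and CYBB passed the filter, so most of this sum comes from genes too low in every region to pass it. SPI1, the defining transcription factor of the lineage, was at 1.54 and 0.424 in r5. PTPRC, the leukocyte antigen CD45, was at 3.99 and 2.81 in r5, and CSF1R, the receptor for macrophage growth factor, at 6.74 and 4.49. Other markers of the list went the other way. MRC1 and C1QA, like CD74, had their highest regional mean in r5, and the rest of the 12 did not. MRC1 was at 4.76 and 8.24 in r5 and 0.447 to 7.78 elsewhere, and C1QA at 2.76 and 7.08 in r5 and 1.10 to 6.25 elsewhere. None of the 12 was higher on both r5 arrays than on all others. That pattern was found in 3.26% of the probe sets past the filter, which most of the 12 did not pass. Whether macrophages had a part in the SPP1 signal was not tested.

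The summed signals of the other tissue lists in r5 did not stand above those of all other arrays. Such sums follow their brightest genes, so they cannot show a rise in a dimmer one. The 9 bone and cartilage markers measured gave 583 to 646 in r5 and 254 to 992 on the other arrays. The 7 otic markers gave 359 to 379 in r5 and 336 to 699 elsewhere. Most of this sum was PAX2 and DLX5. PAX2 was at 66.3 to 72.2 in r5, 22.1 to 28.5 in r4, 1.49 to 13.2 in r3, 83.2 to 90.2 in r2 and 363 to 470 in m and r1. DLX5 was at 273 to 285 in r5 and 539 to 666 in r4. The 5 surface ectoderm markers gave 400 to 511 in r5 and 271 to 848 elsewhere. For mesoderm and notochord, 8 markers gave 107 to 119 in r5 and 98.6 to 216 elsewhere. Apart from these sums, MEOX2 was rank 10 for r5 against the other regions, at 34.7 to 40.9 in r5 and at most 15.8 elsewhere. Whether mesoderm had a part in the r5 pools was not tested. The 6 neural crest markers gave 750 to 795 in r5 and 246 to 1793 elsewhere, and 1 of them, SOX8, was above all other arrays in r5, at 54.1 and 68.2. Of all probe sets that passed the filter, 3.26% were above all other arrays in r5. The 8 blood and endothelium markers gave 60.4 to 69.9 in r5 and 27.6 to 142 elsewhere, and KDR, an endothelial receptor, was above all other arrays in r5, at 11.8 and 10.6 against a highest value of 10.5. The 6 endoderm markers gave 19.9 to 21.2 in r5 and 10.7 to 56.7 elsewhere.

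Few of the genes for osteopontin's relatives, receptors, enzymes, regulators and downstream proteins were called between r5 and r4. Of 56 listed genes other than SPP1, 51 were annotated and 37 passed the filter and were tested. Between r5 and r4, limma with Benjamini-Hochberg adjustment over all probe sets called 1 of the 37 higher in r5 and 0 lower, against a background of 0.276% of probe sets higher and 0.189% lower. On leaving out 1 array these backgrounds moved from 60 probe sets higher to between 6 (without set 2 of r5) and 326 (without set 1 of r3), and from 41 lower to between 6 (without set 2 of r5) and 215 (without set 2 of r3). At an unadjusted p under 0.05, 5 of the 37 were higher and 3 lower, beside 5.36% and 3.88% of all probe sets. The median log2 difference of the 37 was −0.13, beside −0.01 over all probe sets. Between r5 and the mean of the other 5 regions, 2 were called higher and 0 lower, against backgrounds of 1.14% and 0.566%. At an unadjusted p under 0.05, 4 were higher and 4 lower, beside 6.46% and 5.08% of all probe sets. Here the median was 0.03, beside 0.06 over all probe sets. Between r5 and r3, 10 were called higher and 3 lower, but 26.8% of all probe sets were called higher and 4.18% lower, and the median of the 37, 0.51, was near the 0.57 of all probe sets. All 3 comparisons share the r5 arrays.

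**Figure D2:**
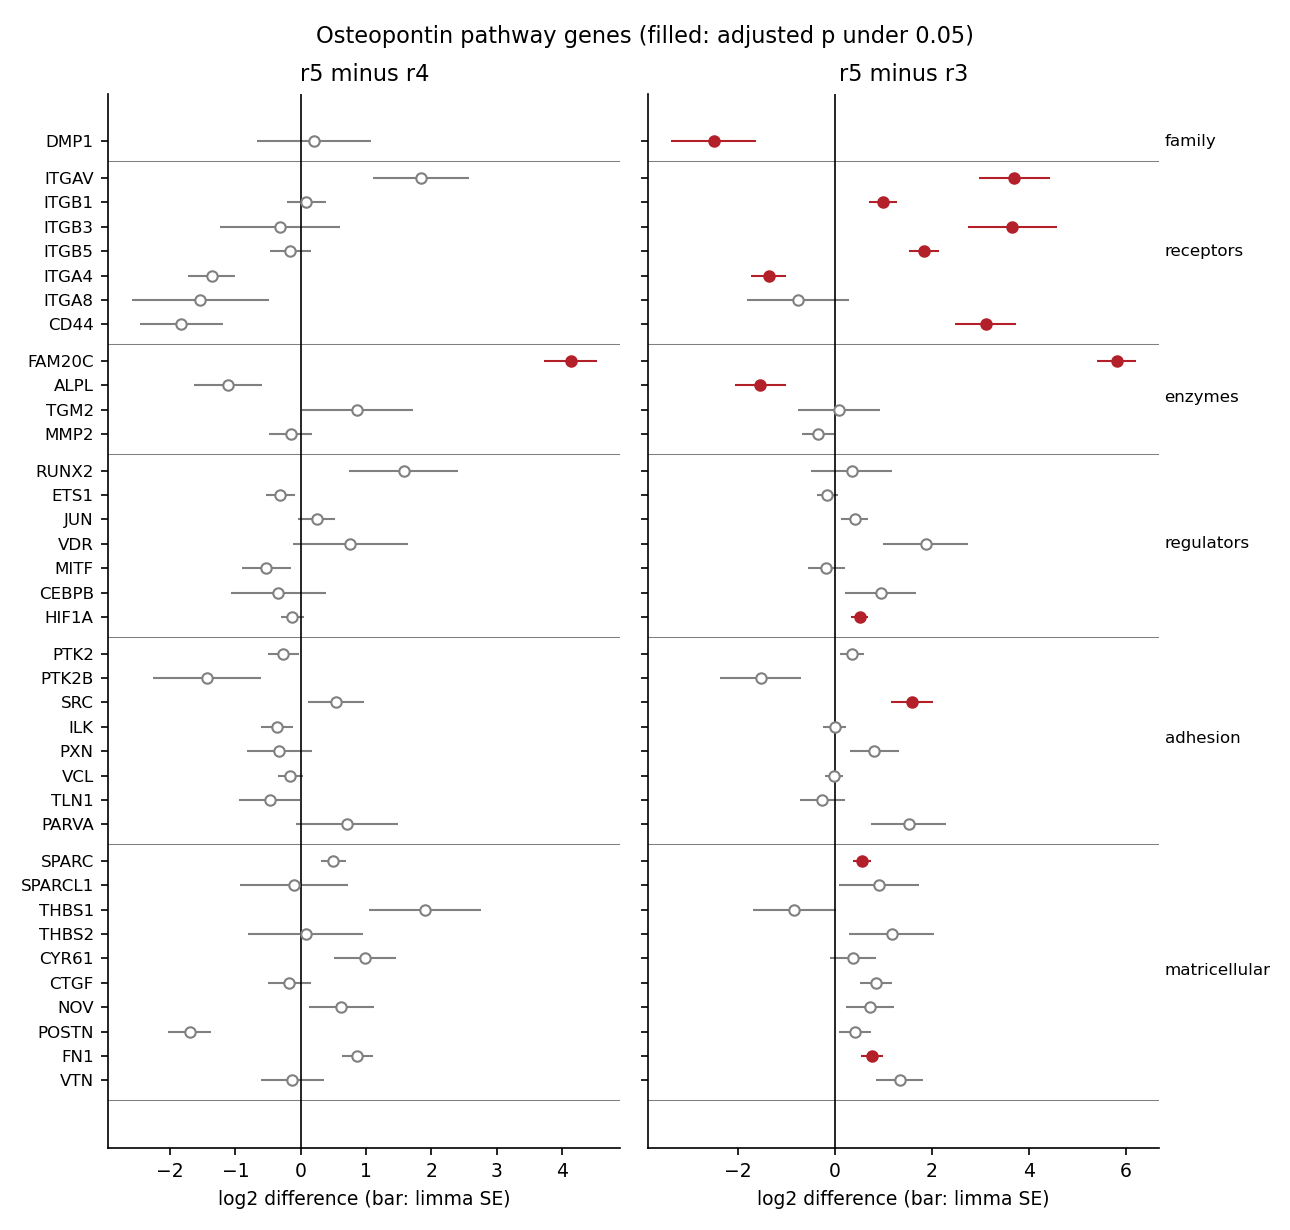
Log2 difference of r5 minus r4 (left) and r5 minus r3 (right) for the 37 osteopontin pathway genes tested, by list, with bars for the limma SE and filled points for an adjusted p under 0.05. FAM20C is the 1 filled point for r5 minus r4, whereas 13 are filled for r5 minus r3.

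The gene called in all 3 comparisons was FAM20C, the secretory pathway kinase that phosphorylates osteopontin and its relatives. Its scaled signal was 69.2 and 70.7 in r5 and 3.08 and 5.17 in r4, and the groups lie far apart. It was higher in r5 than in r4 by 4.13 on the log2 scale (SE 0.40, adjusted p = 0.000925, limma) and than in r3, where it read 1.51 and 0.250, by 5.81 (SE 0.40, adjusted p = 2.19e-05, limma). The lower r3 array lay under the floor, and with a pseudocount of 16 the differences were 2.10 from r4 and 2.35 from r3. Unlike SPP1, FAM20C was also at this level in m, with 68.3 and 69.0, and in r1, with 68.8 and 61.2, and it read 10.4 and 12.3 in r2. Its difference from the mean of the other regions was accordingly smaller, at 2.54 on the log2 scale (SE 0.31, adjusted p = 0.00125, limma). The enzymes list held 9 genes, of which 8 were annotated and 4 tested. Besides FAM20C, ALPL, the alkaline phosphatase that can remove phosphate from osteopontin, was at 6.11 and 3.07 in r5 and 11.4 and 14.0 in r3 and was lower in r5 than in r3 by limma (log2 difference −1.55, SE 0.53, adjusted p = 0.0431). MMP2, a gelatinase, passed none of the tests, at 60.4 and 67.3 in r5 and 63.5 and 79.2 in r4.

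Among the receptors, 7 of 11 listed genes were tested and none was called between r5 and r4, where 1 was higher and 2 lower at an unadjusted p under 0.05, the threshold that 5.36% and 3.88% of all probe sets passed. ITGAV, the αv integrin subunit, was at 14.4 and 21.7 in r5, 2.03 and 12.0 in r4, and 0.353 and 1.81 in r3. Its partners had broad signals, ITGB3 with 58.0 and 52.9 in r5 and 59.5 and 80.1 in r4, and ITGB5 with 158 and 105 in r5 and 128 and 162 in r4. ITGB1, the common β1 subunit, was at 225 and 223 in r5 and 188 and 237 in r4. For ITGB5 and ITGB1 the r5 values lay within or across those of r4, and for ITGB3 the r4 arrays lay just above those of r5. A second ITGB1 probe set that passed the filter read lower in r5, at 43.4 to 51.5 against 61.9 to 65.9 in r4. Its log2 difference of −0.43 was not called (adjusted p = 0.625, limma). Against r3, limma called 5 receptors higher in r5, ITGAV by 3.70, ITGB3 by 3.66, CD44 by 3.11, ITGB5 by 1.84 and ITGB1 by 0.99 on the log2 scale. In that comparison 26.8% of all probe sets were called higher, and the median log2 difference over all probe sets was 0.57. CD44 on both r3 arrays, and ITGAV and ITGB3 on set 1 of r3, lay under the floor, so the size of their differences depends on it. With a pseudocount of 16 these were 0.60 for CD44, 0.99 for ITGAV and 1.56 for ITGB3. With no floor they were 4.28, 4.47 and 3.70. Each of these 5 receptors had its lowest signals of all regions in r3, 0.545 and 0.384 for CD44 and 25.8 and 50.1 for ITGB5.

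CD44, the hyaluronan receptor that also binds osteopontin, was highest in r4. Its scaled signal was 27.8 and 35.7 in r4 and 6.96 and 11.3 in r5, and these do not overlap, but the difference of −1.83 on the log2 scale (SE 0.63) had an adjusted p of 0.351 by limma. ITGA4, the α4 subunit, was at 79.0 and 118 in r5, 164 and 379 in r4 and 288 and 214 in r3. It was called lower in r5 than in r3 by limma (log2 difference −1.36, SE 0.36, adjusted p = 0.0146), and not between r5 and r4 (log2 difference −1.37, adjusted p = 0.168). ITGA8, the α8 subunit, passed no test, with 7.07 and 0.783 in r5 and 17.1 and 3.57 in r4.

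**Figure D3:**
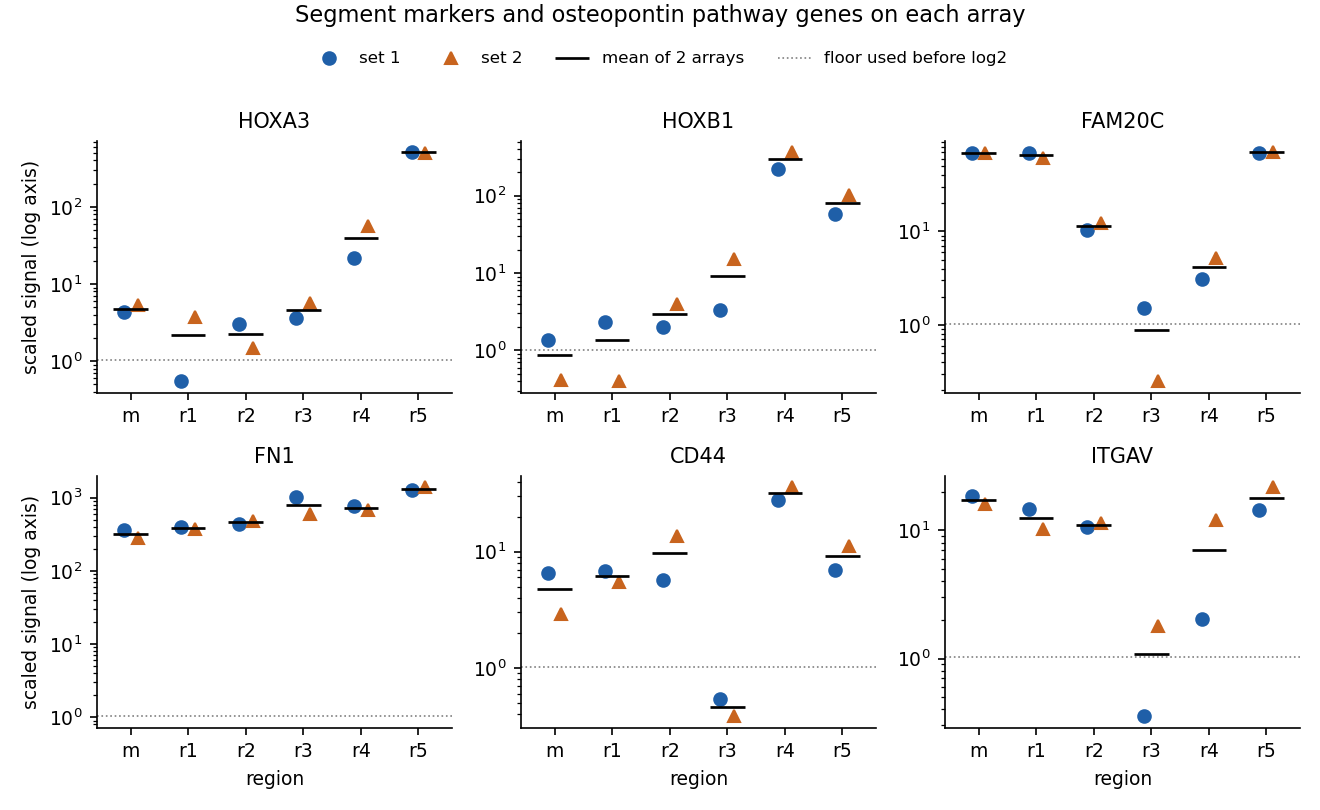
Median-scaled signal (log axes) on each array of HOXA3 and HOXB1, markers of r5 and r4, and of FAM20C, FN1, CD44 and ITGAV, with symbols and bars as in the plot of SPP1. FAM20C is as high in m and r1 as in r5, and CD44 is highest in r4.

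Of 11 listed genes for other matricellular proteins and ligands of the same integrins, 10 were tested. FN1, fibronectin, was at 1261 and 1385 in r5, 778 and 674 in r4, 1014 and 598 in r3, and 280 to 477 in m, r1 and r2, so both r5 arrays were above all others. It was called higher in r5 than the mean of the other regions (log2 difference 1.39, SE 0.18, adjusted p = 0.00185, limma), and this call was lost without set 1 of r5 (adjusted p = 0.0501) and without set 2 of r5 (adjusted p = 0.0762). Between r5 and r4 the probe set of highest mean had an adjusted p of 0.186 by limma. FN1 has 8 probe sets, of which 4 passed the filter. All 4 were called higher in r5 than the mean of the other regions, the others by 1.67, 1.00 and 0.98 on the log2 scale (adjusted p = 0.000126, 0.0141 and 0.0112, limma). Against r4 they disagree, since 1 other was called higher in r5 (log2 difference 1.37, adjusted p = 0.00873, limma) and the remaining 2 were not. Against r3, where the probe set of highest mean was called higher in r5 (log2 difference 0.76, adjusted p = 0.0290, limma), these 2 had log2 differences of −0.04 and 0.02. SPARC, a collagen-binding matricellular protein, was at 1807 and 1741 in r5 and 1001 to 1439 on the other arrays, with a log2 difference of 0.61 from the mean of the other regions (adjusted p = 0.0695, limma). It was called higher in r5 than in r3 (log2 difference 0.56, adjusted p = 0.0434, limma). Its other 2 probe sets were also called higher than in r3 (2.03 and 2.39, adjusted p = 0.00327 and 0.00478, limma). They did not set r5 apart from all other arrays, at 107 to 130 in r5 against up to 113, and at 37.0 to 101 in r5 against 121 to 155 in m. POSTN, periostin, read lower in r5 than in r4, with 31.6 and 47.0 in r5 and 113 and 138 in r4 (log2 difference −1.70, SE 0.33, adjusted p = 0.0505, limma). NOV, a CCN family protein, was at 96.9 and 82.6 in r5 and highest in r1, at 670 and 763.

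Transcription factors with known sites at osteopontin genes and the proteins of integrin adhesions gave no call between r5 and r4. In that comparison 0.276% of all probe sets were called higher and 0.189% lower, so no call among so few genes says little. Against r3, 26.8% of all probe sets were called higher, beside 14.3% of the regulators tested and 12.5% of the adhesion genes. Of 13 regulators listed, 7 were tested, and 1 of them, HIF1A, the oxygen-sensitive factor, was called higher in r5 than in r3 (log2 difference 0.51, adjusted p = 0.0436, limma), at 711 and 659 against 444 and 517. A second HIF1A probe set gave a log2 difference of 3.09 from r3 (adjusted p = 0.000121, limma). JUN, a subunit of AP-1, was at 138 and 97.7 in r5 and 75.1 and 128 in r4. RUNX2, the osteoblast factor, had a log2 difference of 1.58 between r5 and r4 that did not pass (adjusted p = 0.635, limma). All 8 adhesion genes were tested, and SRC, a tyrosine kinase of focal adhesions, was called higher in r5 than in r3 (log2 difference 1.59, adjusted p = 0.0169, limma), at 18.2 and 11.4 against 4.11 and 5.60. A second SRC probe set that passed the filter went the other way, with a log2 difference of −0.85 (adjusted p = 0.418, limma). PTK2, the focal adhesion kinase, was at 292 and 320 in r5 and 334 and 403 in r4.

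Of the 13 calls between r5 and r3 in the 37 genes, those of FAM20C, ITGAV, ITGB5 and CD44 held on leaving out each of the 12 arrays in turn. Each of the others was lost on leaving out at least 1 array. Those of DMP1, ALPL, HIF1A and SPARC were each lost on leaving out any 1 of 9 arrays, among them all arrays of m, r1 and r2. CD44 lost its call with array weights (adjusted p = 0.0865, limma). Without set 2 of r3 there were 16 genes higher, without set 1 of r5 there were 4, and without set 2 of r5 there were 5. Over all probe sets the number higher moved in the same direction, from 5825 to 8130, 2737 and 3526.

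The genes beside SPP1 on chromosome 4 were low in every region. In the annotation the order is RASGEF1B, PRKG2, PKD2, SPP1, MEPE, IBSP and DMP1, the last 3 being relatives of SPP1. Over all arrays their scaled signals stayed between 0.132 and 12.6, and 2 of the 6, RASGEF1B and DMP1, passed the filter. PKD2, a cation channel of cilia, was at or under the floor of 1.03 on 7 of 12 arrays, and PRKG2, a protein kinase, on 10. MEPE was at 4.71 and 5.11 in r5 and 0.508 to 5.07 elsewhere, all under the array median. IBSP, bone sialoprotein, was at 0.751 and 0.529 in r5. DMP1, dentin matrix protein, was at 0.381 and 3.71 in r5 and 12.4 and 9.86 in r3. It passed the filter only through r3, every other array being at 3.71 or lower, so its limma call as lower in r5 than in r3 (log2 difference −2.50, adjusted p = 0.0483) rests on that selection. RASGEF1B, an exchange factor for Ras proteins, was highest in m, at 12.6 and 6.13, and passed no test. The r5 signal of SPP1 was therefore not shared by the annotated genes next to it. DSPP was not analysed here.

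The genes whose pattern was most like that of SPP1 were found by Pearson's r over the 12 arrays, on log2 signals, among 9939 genes. These arrays share their regions, 2 by 2, and r is given as a description. The 10 highest were GAMT (0.98), DUSP5 (0.96), RFTN1 (0.95), CASKIN2 (0.95), SELENOP1 (0.94), SLCO2B1 (0.93), TSPAN15 (0.91), ADSS1 (0.91), ASL1 (0.91) and PLCXD3 (0.91). The median over all genes was 0.18, and 12 genes were over 0.9, with the next after the 10 named at 0.91.

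All 10 had both r5 arrays above the other arrays, as 3.26% of all probe sets did, and their choice by likeness to SPP1 favoured this. The log2 difference from the mean of the other regions was smaller than that of SPP1 in every case other than ASL1, at 5.83. GAMT, the methyltransferase of the last step of creatine synthesis, was at 360 and 425 in r5 and 23.7 to 71.0 elsewhere, lowest in r3 and highest outside r5 in r4, as SPP1 was. DUSP5, a phosphatase that acts on ERK, was at 168 and 276 in r5 and 10.7 to 31.1 elsewhere. ASL1 was at 866 and 708 in r5, 71.9 and 78.6 in r4 and 5.52 to 12.1 in m to r3, so it stepped up in r4, where SPP1 did not. CASKIN2, a scaffold protein, was at 909 and 1082 in r5 and 116 to 289 elsewhere. SELENOP1, a secreted selenoprotein, was at 115 and 120 in r5 and 21.4 to 56.3 elsewhere. SLCO2B1, an organic anion transporter, was at 44.8 and 48.6 in r5 and 2.56 to 13.2 elsewhere. The remaining 4 differed by 1.10 to 2.17 on the log2 scale from the mean of the other regions, RFTN1, a protein of membrane rafts, with 138 and 140 in r5 against 42.9 to 72.8, and ADSS1, an enzyme of AMP synthesis, with 430 and 449 against 66.7 to 145.

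**Figure D4:**
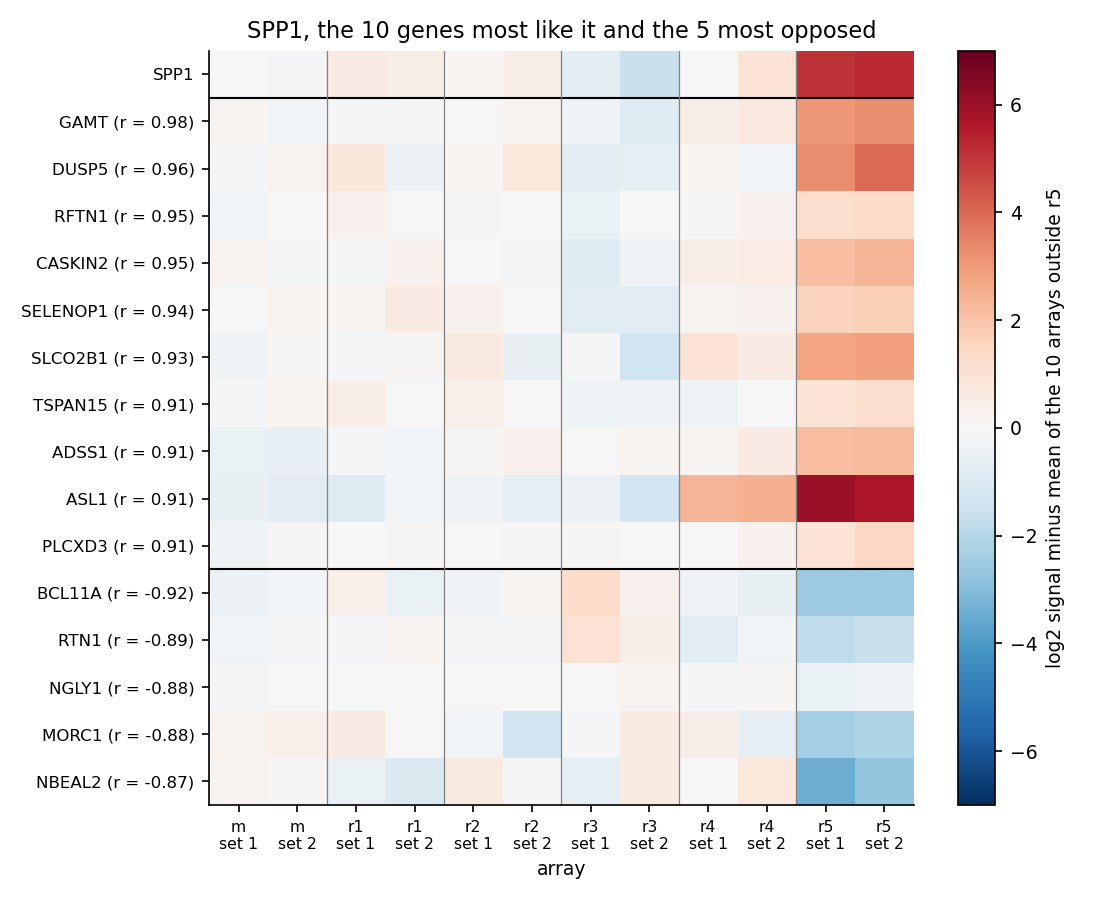
Log2 signal on each of the 12 arrays minus the mean of the 10 arrays outside r5, by colour, for SPP1, the 10 genes most like it and the 5 most opposed, each with Pearson's r. The r5 columns are the strongest for SPP1 and the 10 alike, and of the 10 ASL1 stands out most in r4.

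Much of this likeness rests on the 2 r5 arrays. Over the 10 arrays outside r5, r with SPP1 was 0.84 for GAMT and 0.81 for SELENOP1, between 0.48 and 0.62 for 6 of the genes, and 0.16 and 0.22 for ADSS1 and PLCXD3. Those 10 arrays include the r3 arrays, which stood apart in their control transcripts and on which SPP1, GAMT and SELENOP1 all read lowest. The r without r3 and r5 together was not computed. At the other end of the scale stood BCL11A (−0.92), RTN1 (−0.89), NGLY1 (−0.88), MORC1 (−0.88) and NBEAL2 (−0.87). RTN1, a reticulon of neurons, was at 80.1 and 94.8 in r5, 570 and 367 in r3 and 167 to 311 elsewhere. BCL11A, a zinc finger transcription factor, was at 0.163 and 0.463 in r5, under the floor, and 4.11 to 14.5 elsewhere. NGLY1, a deglycosylating enzyme of the cytoplasm, had the smallest range, from 103 and 114 in r5 to 129 to 165 elsewhere.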

How the data were processed

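RNA of 6 regions was measured on 12 Affymetrix Chicken GeneChips. The authors amplified 10 ng of RNA per pool and deposited a MAS5 signal for each of 38535 probe sets, a linear intensity corrected by the mismatch probes and not scaled between arrays (array medians 2.27 to 9.67). No genome build is given in the sources used here, and detection flags were not used here. Symbols are those of the platform annotation, and neighbouring genes from the RefSeq gene table (GRCg7b), of which no coordinates are given.

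Signals were divided by the array's median over 38439 non-control probe sets and multiplied by 5.90. A floor at the 20th percentile of all values (1.03) was set before log2, which understates differences of low genes. A probe set was tested if both arrays of some region exceeded their median, which held for 21731. Regions were compared with limma 3.58.1 in R 4.3.3 (lmFit, eBayes with trend, a mean per region, 6 residual degrees of freedom and 6.00 prior ones), with Benjamini-Hochberg adjustment over all probe sets and a threshold of 0.05. The fit was also run on simulated normal values with no floor and no region differences other than changes added in r5. That run checked the code and does not bear on the calls made here. A gene is given by its probe set of highest mean signal.

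The pools were called biological replicates of different occasions, so p-values measure the spread between pools. That spread is fitted for each probe set over all regions together. A p-value for r5 against r4 thus also carries the spread of the r3 arrays and of the anterior regions. Without both r3 arrays, probe sets called higher in r5 than in r4 went from 60 to 330. Those called lower went from 41 to 205. The cause of this rise was not tested. No arrays were identical. SPP1, the lists and the markers were chosen with earlier results of these data known. Named genes were the 10 most like and 5 most opposed to SPP1, every pathway gene past the threshold, the brightest not past it on each list, and 3 genes on each side of SPP1. POSTN, RUNX2, the marker genes named and the genes ranked beside SPP1 were named after their values were seen. The alternatives were quantile normalisation, no scaling, no floor, a pseudocount of 16, no filter, a replicate block, no trend, array weights, a plain test, and leaving out each array or both r3 arrays. Figures were drawn with matplotlib 3.10.9.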

Additional observations from a re-analysis of the deposited data

How the results depend on the processing

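SPP1 stayed higher in r5 under every alternative run. With a pseudocount of 16 its log2 difference was 3.73 from r4, 4.37 from r3 and 3.95 from the mean of the other regions. That last difference was 4.79 without scaling and 4.83 without both r3 arrays, and the mean r5 signal without scaling was 336. Leaving out 1 array at a time gave 4.15 to 5.11 from r4, 5.84 to 6.69 from r3, 5.02 to 5.21 from the mean of the others, and r5 signals of 412 to 459.

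Of the pathway genes, counts higher in r5 than in r4 ran from 1 to 2 on leaving out 1 array and were 2 without both r3 arrays (FAM20C and FN1). Counts lower ran from 0 to 2, and were 1 after quantile normalisation, 1 with array weights (POSTN in both), 2 with the pseudocount (CD44 and POSTN) and 2 without both r3 arrays (ITGA4 and POSTN). Against r3, 4 to 16 were higher and 1 to 3 lower on leaving out 1 array, while 2737 to 8130 of all probe sets were higher and 438 to 1230 lower. There were 6 higher without the filter, without the trend, with array weights and in the plain test, and 7 lower after quantile normalisation, 0 without scaling and 0 with array weights. Against the mean of the others, 1 to 4 were higher and 0 to 2 lower on leaving out 1 array, 1 was higher without scaling, 3 were lower without both r3 arrays and 1 with array weights. The causes were not tested. No FAM20C call was lost. FN1 lost its call against the mean of the others without scaling (adjusted p = 0.299, limma).

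With the set number as a replicate block, the counts were 1 higher and 0 lower than r4, 10 and 2 against r3, and 3 and 0 against the mean of the others. The block ended the call of DMP1 against r3 (adjusted p = 0.0600, limma). Deviations of same-numbered arrays correlated above 0.1 in 0 of 15 pairs of regions (r from −0.04 to 0.07), so no large pattern over probe sets was shared. An overall shift could not be seen this way, because median scaling and the correlation both remove it. The correlations also cannot tell whether same-numbered pools of different regions were collected together, which the sources do not state. Of the 10 genes most like SPP1, 6 were shared without the r3 arrays, 6 after quantile normalisation, 5 over region means and 0 with Spearman's rho.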
